A study of Mus musculus with 11 samples.

Results

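The genes described here encode the machinery that docks, primes and fuses synaptic vesicles. They are the synaptotagmins, the syntaxins and their binding proteins, the vesicle-associated membrane proteins (VAMPs), the SNAP family with the clathrin adaptor gene Snap91, the synapsins, the complexins, the SV2 proteins, the RIM proteins and the Munc13 proteins. Members were chosen by gene symbol alone, and 70 of the 32531 genes counted matched. The RNA came from adult mice of the Glt25d2-EGFP/Rpl10a line, labelled Glt25d2-TRAP DU9, in a study of short-access intravenous cocaine self-administration. All animals, controls included, carry this transgene, which puts EGFP on the ribosomal protein L10a through the Glt25d2 promoter. That gene is now called Colgalt2, and its driver marks layer 5 pyramidal cells of the cortex. Antibodies to EGFP pull down tagged ribosomes with the RNA bound to them, so that the immunopurified (IP) fraction is meant to hold the RNA of the labelled neurons. Of the 11 libraries, 3 IP libraries came from saline self-administration, 3 from cocaine self-administration and 3 from yoked controls, with 1 input library of total RNA from the saline group and 1 library of unbound RNA from the cocaine group. What the yoked animals received, their sex and exact age, and whether a library is 1 animal or a pool are not stated in the labels. The p-values below therefore measure only the spread between libraries. The labels name the cerebral cortex as the tissue, while the extraction protocol describes the whole striatum.

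Vesicle release is driven by SNARE proteins, which zip together from opposite membranes. In the brain the vesicle SNARE is VAMP2 (synaptobrevin), and its partners on the plasma membrane are syntaxin-1 and SNAP-25. Munc13 opens syntaxin-1, and RIM proteins tether Munc13 and calcium channels at the active zone. Complexins clamp and then assist the partly assembled complex, and synaptotagmin-1 or synaptotagmin-2 triggers fusion when calcium enters. Synapsins hold the reserve pool of vesicles, and SV2 proteins are vesicle glycoproteins that bind synaptotagmin-1. Other members act elsewhere: Snap23, Vamp3, Vamp8 and Stx4a serve constitutive exocytosis in many cell types, and Stx5a, Stx6, Stx7, Stx8, Stx12, Stx16, Stx17 and Stx18 serve the endoplasmic reticulum, Golgi, endosomes and autophagosomes.

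The sequences around the start sites of 4 members are shown because these genes carry the contrasts described below. The only comparison in which members passed an adjusted p of 0.05 in edgeR was IP replicate number 1 against numbers 2 and 3. There 55.3% of all genes passed too, while no treatment comparison called a member. In that comparison of replicate numbers Cplx2 fell and Cplx1 did not pass. Syt14 had the largest decrease and Snap47 the largest increase of any member. Each run holds 250 bases before and 50 bases after the RefSeq start on GRCm38.p6, read 5′ to 3′ on the gene's strand, with GC boxes (GGGCGG or, on the other strand, CCGCCC, overlaps included) in capitals. The positions are chr5:108549978-108550277 on the minus strand for Cplx1, chr13:54302306-54302605 on the plus strand for Cplx2, chr1:193035726-193036025 on the minus strand for Syt14 and chr11:59449985-59450284 on the minus strand for Snap47.
Cplx1: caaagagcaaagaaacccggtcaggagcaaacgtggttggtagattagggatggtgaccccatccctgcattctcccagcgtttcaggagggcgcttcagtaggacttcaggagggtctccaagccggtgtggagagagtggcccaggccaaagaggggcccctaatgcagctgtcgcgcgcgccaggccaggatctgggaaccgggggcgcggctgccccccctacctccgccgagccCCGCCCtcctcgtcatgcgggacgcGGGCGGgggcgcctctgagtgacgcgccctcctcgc
Cplx2: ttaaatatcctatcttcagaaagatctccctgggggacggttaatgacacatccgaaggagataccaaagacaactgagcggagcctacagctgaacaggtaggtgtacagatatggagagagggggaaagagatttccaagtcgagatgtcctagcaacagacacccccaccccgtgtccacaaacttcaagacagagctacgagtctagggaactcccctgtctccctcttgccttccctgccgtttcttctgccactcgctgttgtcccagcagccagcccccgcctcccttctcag
Syt14: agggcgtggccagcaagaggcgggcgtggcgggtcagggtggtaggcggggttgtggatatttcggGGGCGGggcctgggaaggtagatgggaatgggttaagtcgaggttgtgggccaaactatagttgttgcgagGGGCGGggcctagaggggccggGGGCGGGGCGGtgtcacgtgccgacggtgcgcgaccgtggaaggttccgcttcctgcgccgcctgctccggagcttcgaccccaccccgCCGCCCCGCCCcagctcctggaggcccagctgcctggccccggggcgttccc
Snap47: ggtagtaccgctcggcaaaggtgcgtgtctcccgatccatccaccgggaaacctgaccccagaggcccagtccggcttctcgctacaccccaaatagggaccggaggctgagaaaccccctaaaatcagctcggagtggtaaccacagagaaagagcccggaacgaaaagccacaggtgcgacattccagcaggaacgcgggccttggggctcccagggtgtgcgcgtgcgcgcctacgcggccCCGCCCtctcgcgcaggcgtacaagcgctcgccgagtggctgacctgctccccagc
GC boxes numbered 2 in Cplx1, 0 in Cplx2, 6 in Syt14 and 1 in Snap47. The GC content was 67.0% in Cplx1, 53.3% in Cplx2, 71.3% in Syt14 and 65.0% in Snap47, against a median of 52.7% over 32851 start regions in the same table. The RefSeq start used for Cplx2 lies upstream of the Cplx2 gene model in GENCODE M21, which spans chr13:54371349-54383917. RefSeq start regions were matched for 52 of the 70 members. Of these, 40 of 52 (76.9%) held a GC box, whereas 10324 of 27025 genes in the table did (38.2%). A TATA box (TATAAA, either strand) was present in 3 of 52 members (5.77%) and in 4234 of the 27025 genes (15.7%). The CCAAT box (CCAAT, either strand) occurred in 18 of 52 members (34.6%) and in 41.1% of all genes. These matches describe letters in a window and do not locate a bound factor.

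Library depth ran from 20926712 to 53862653 counts in genes, and 64 members had counts in every library, while Vamp7 was at 0 in all 11. Vamp7 is also the only member without an exon length. Whether its RNA was absent or its locus was not counted was not tested. A floor of 3 counts corresponds to 0.0557 to 0.143 CPM (counts scaled to a common library total of 1e6), counting error only. The 3 IP libraries numbered 1, which share an index sequence, stood apart from the other 6. Summed over 11 layer 5 markers, their levels ran from 1063 to 1216 CPM against 562 to 743 CPM in IP numbers 2 and 3 and 599 CPM in the input. Summed astrocyte markers ran from 1015 to 1450 CPM in number 1 and from 2386 to 3000 CPM in numbers 2 and 3, and 2573 CPM in the input. Summed over 9 markers of striatal projection neurons, they ran from 347 to 420.5 CPM in number 1 and from 544 to 659 CPM in numbers 2 and 3. The markers of layer 5 neurons that the label calls for were thus present in every library, beside markers of glia, interneurons and striatal neurons. The IP libraries of each treatment group were run in separate sequencing lanes (saline 6, cocaine 2, yoked 3), so lane and treatment cannot be told apart. The saline input was run in lane 7.

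Snap25 was among the most abundant messages in every fraction, while the levels of the other members varied widely. Together the 70 members took 2.94% to 3.78% of all gene counts, and Snap25 alone took 1.35% to 2.20%. Snap25 was the gene with the second highest count in 10 libraries and the third highest in the unbound library. In IP libraries 29 members averaged at least 100 CPM, 24 averaged 10 to under 100 CPM, 8 averaged 1 to under 10 CPM and 9 were below 1 CPM. Scaled to exon length as CPM per kilobase of exon (RPKM), 6 members ranked among the top 100 and 18 among the top 1000 of the 23847 genes that have an exon length.

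Snap25, Vamp2 and the complexins Cplx1 and Cplx2 were the most abundant members by that measure. Snap25 (chr2:136713453-136782428, plus strand) averaged 2725 ± 497 RPKM (SD, n = 9 IP libraries) and ranked 3 among all genes, while its ubiquitous relative Snap23 stood at 2.55 ± 0.663 RPKM. Vamp2 (chr11:69088490-69092384, plus strand) averaged 529 ± 40.7 RPKM and ranked 20. The other neuronal synaptobrevin, Vamp1, was at 11.5 ± 0.851 RPKM, and the constitutive Vamp3 at 14.7 ± 4.68 RPKM. Cplx1 (chr5:108518554-108550024, minus strand) averaged 381 ± 32.6 RPKM at rank 36, and Cplx2 averaged 313 ± 134 RPKM at rank 56. The spread of Cplx2 was 43.0% of its mean, against 8.56% for Cplx1. Syn1 stood at 263 ± 48.2 RPKM and Syt1 at 185 ± 20.3 RPKM. These SDs are over the same 9 IP libraries and pool unlike ones. In saline, cocaine and yoked IP number 1, Cplx2 stood at 137, 111 and 163 RPKM and Cplx1 at 413, 405 and 407 RPKM. In numbers 2 and 3 the ranges overlapped, at 371 to 454 RPKM for Cplx2 and 341 to 417 RPKM for Cplx1.

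Levels were unequal within families. Among 17 synaptotagmins Syt1 was the most abundant per length, followed by Syt11 (96.0 ± 8.01 RPKM), which does not bind calcium, and Syt4 (72.8 ± 14.6 RPKM), a regulator of dense-core vesicles and dendritic release. The fast sensor Syt2 stood at 4.79 ± 0.619 RPKM and the slow sensor Syt7 at 30.9 ± 5.99 RPKM. Stx1a, the plasma membrane syntaxin of the release complex, stood at 63.3 ± 6.28 RPKM. Stx4a overlaps another gene in part, and reads shared by overlapping genes go to neither, so its values are uncertain. Reads over several genes were 7.34% of all entries in the unbound library and 1.56% to 1.91% elsewhere. Among SV2 genes Sv2b led with 84.4 ± 19.01 RPKM, ahead of Sv2a at 32.3 ± 6.57 RPKM and Sv2c at 2.62 ± 0.656 RPKM. Munc13-1 (Unc13a) was at 8.69 ± 1.52 RPKM, and Rims1 and Rims2 were at 16.5 ± 5.06 and 17.0 ± 4.37 RPKM. These 2 RIM genes differed by less than their spread. Cplx4, Stx11, Stx19, Syt8 and Unc13d averaged 0.00155 to 0.0277 RPKM, and Syt8 had a single count in a single library.

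**Figure D1:**
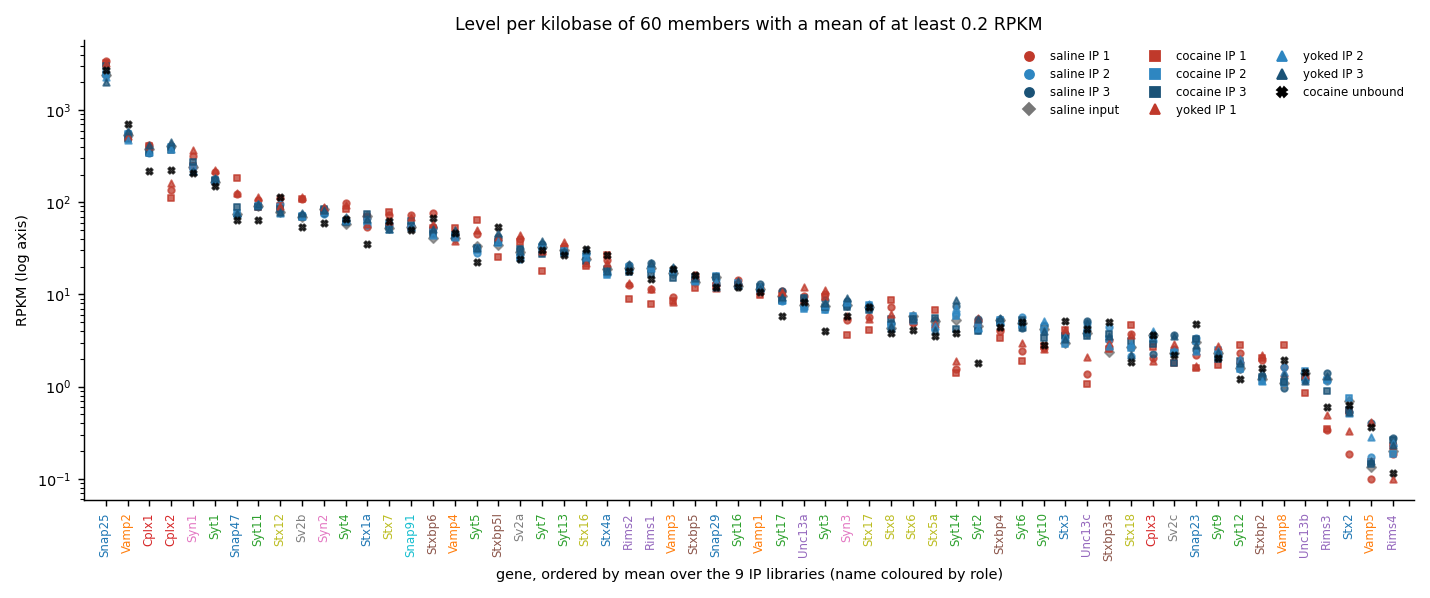
RPKM (log axis) of 60 members with a mean of at least 0.2 RPKM in each of the 11 libraries, ordered by the mean over the 9 IP libraries, with names coloured by role. Points of most genes lie close together, while the red points (IP number 1) sit apart for Cplx2, Syt14, Rims1 and Unc13c.

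The first question the design poses is whether cocaine self-administration shifts these messages in the IP RNA. Layer 5 marker sums in IP numbers 2 and 3 were 562 to 743 CPM, beside 599 CPM in the input. The treatment comparisons thus rest mostly on libraries with little or no excess of layer 5 markers, and are not specific to the labelled neurons. Cocaine IP was compared with saline IP, and no member was called: 0 of 63 tested members passed an adjusted p of 0.05 in edgeR's quasi-likelihood test, as did 0% of 16417 genes. At an unadjusted p under 0.05 the count was 1 member and 168 genes in edgeR, and DESeq2 also called 0 members. Estimates lay above 0 for 20 members and below 0 for 43, with a median log2 difference of -0.06 against 0.03 over all genes tested. Without saline replicate 1 the split was 31 above and 32 below, and it was the same without all 3 libraries numbered 1. Without cocaine replicate 1 it was 21 and 42, with a median of -0.03.

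By role, 14 of 16 synaptotagmins and 7 of 7 syntaxin-binding proteins lay below 0, whereas 7 of 9 target-membrane SNAREs lay above. Without the libraries numbered 1 the counts below 0 were 9 of 16 synaptotagmins and 3 of 7 syntaxin-binding proteins, and 6 of 9 target-membrane SNAREs lay above. Among the fusion genes, Snap25 differed by 0.09 ± 0.24 (log2 ± SE, edgeR), Vamp2 by -0.08 ± 0.16 and Syt1 by -0.12 ± 0.17. Cplx1 differed by -0.06 ± 0.16, Cplx2 by -0.08 ± 0.58 and Unc13a by 0.01 ± 0.21. Each of these differences was smaller than its standard error. These errors come from group means without replicate number in the model, so they include the spread between numbered libraries. With replicate number as a block, 8 members (12.7%) and 12.3% of genes had an unadjusted p under 0.05 in edgeR. None passed the adjusted threshold. The wide error of Cplx2 came with the gap between its numbered libraries, which is described below. The remaining core genes ranged from -0.30 (Syt7) to 0.26 (Vamp8), apart from Sv2c.

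Sv2c had the smallest p-value of all members. It encodes the SV2 protein that is most restricted in the brain and is known from basal ganglia circuits. Its level was 24.5, 24.3 and 34.7 CPM in saline replicates 1, 2 and 3, 17.6, 22.5 and 17.9 CPM in the cocaine replicates, and 28.1, 23.8 and 34.0 CPM in the yoked replicates. All 3 cocaine libraries thus lay below all saline and all yoked libraries. The log2 difference from saline was -0.52 ± 0.21 (SE, edgeR), with an unadjusted p of 0.0361 and an adjusted p of 1. Without saline replicate 3 it was -0.33, also with an adjusted p of 1, and without the libraries numbered 1 it was -0.55 with an adjusted p of 0.889. Over the alternatives tried, the adjusted p ran from 0.377, with replicate number as a block, to 1.

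The next smallest unadjusted p-values were those of Stxbp6 (-0.31 ± 0.20), Stx1a (0.22 ± 0.15), Stxbp5l (-0.26 ± 0.18) and Stx16 (-0.24 ± 0.17), each with an adjusted p of 1. Stxbp6 encodes amisyn, which binds syntaxin-1 without a membrane anchor, and Stxbp5l encodes a tomosyn, which competes for the same site. Stx1a stood at 143, 151 and 176 CPM in the saline libraries and at 185, 165 and 199 CPM in the cocaine libraries, so the groups overlapped. For 3 members (Sv2c, Stxbp5l and Syt11) every cocaine library lay below every saline library, 4.76% of those tested against a background of 2.34% of genes. Cocaine lay wholly above saline for 2 members (Stx2 and Stx6), or 3.17%, against 3.04% of genes. Syt11, Stx2 and Stx6 are named for their separation, after their values were seen. Syt11 for example had 540, 481 and 479 CPM in saline and 471, 466 and 473 CPM in cocaine.

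Partner genes of the same pathway, which were listed separately, showed the same absence of calls. Of 62 genes for active zone scaffolds, SNARE recycling, vesicle membrane proteins and endocytosis, 0 passed the threshold in any treatment comparison, and 32 lay above and 30 below 0 between cocaine and saline. No marker of other cells passed the test either. All 8 endothelial markers lay lower in cocaine, with a median of -0.66, and 10 of 10 oligodendrocyte markers lay higher, with a median of 0.29. The endothelial markers were scarce, with sums of 24.4, 15.5 and 13.6 CPM in saline IP and 18.0, 9.86 and 5.22 CPM in cocaine IP. Oligodendrocyte markers were not alone in lying higher. Microglial sums were 17.3, 37.2 and 31.6 CPM in saline and 29.8, 39.6 and 37.3 CPM in cocaine. Interneuron sums were mixed, at 557, 975 and 855 CPM in saline and 591, 900 and 1094 CPM in cocaine. The part of these cell types in the estimates of the release genes was not tested.

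Yoked controls were compared with saline as the next comparison of the design. Again 0 of 63 members and 0% of genes passed in edgeR, and at an unadjusted p under 0.05 there were 0 members and 66 genes. DESeq2 called 0 members. Estimates lay above 0 for 38 members and below for 25, with a median of 0.03, and the split was 33 to 30 without the libraries numbered 1. The balance turned to 29 above and 34 below without saline replicate 2, to 28 and 35 without yoked replicate 1, and to 31 and 32 without yoked replicate 3.

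The smallest p-values belonged to Stxbp6 (-0.26 ± 0.20), Cplx3 (0.37 ± 0.30), Stx12 (-0.21 ± 0.18), Unc13a (0.21 ± 0.21) and Stx5a (-0.17 ± 0.19), with an adjusted p of 1 for each in edgeR. Cplx3 encodes a complexin known from retinal ribbon synapses and from a few cortical cell types. Its level was 6.05, 9.26 and 6.65 CPM in saline and 5.63, 11.9 and 10.9 CPM in yoked libraries, which overlap. Stx12 encodes an endosomal syntaxin and stood at 355, 306 and 244 CPM in saline and at 293, 244 and 244 CPM in yoked libraries. Only Stx5a, a Golgi syntaxin, had all yoked libraries (27.6, 26.3 and 23.5 CPM) below all saline libraries (30.1, 28.0 and 29.3 CPM), or 1.59% of members against 2.09% of genes. No member had all yoked libraries above all saline libraries, against 2.16% of genes. The 25 core genes ranged from -0.23 (Snap23) to 0.21 (Unc13a).

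Cocaine was also compared with yoked controls. Here too 0 of 63 members and 0% of genes passed in edgeR, and 1 member and 182 genes had an unadjusted p under 0.05. DESeq2 called 0 members. There were 19 members above and 44 below 0, with a median of -0.07, and 23 and 40 without the libraries numbered 1. Leaving out yoked replicate 1 alone turned the split to 33 above and 30 below, with a median of 0.02. With the length trend taken out the split was 27 above and 36 below. Sv2c again led, at -0.57 ± 0.21 with an adjusted p of 0.972 in edgeR. Over the alternatives its adjusted p ran from 0.137, with replicate number as a block, to 1. It was followed by Stx5a (0.34 ± 0.19), Stxbp5l (-0.33 ± 0.18), Syt7 (-0.37 ± 0.23) and Vamp5 (-0.90 ± 0.59), each with an adjusted p of 0.972. Vamp5 was close to the floor, at 0.402 to 0.416 CPM in cocaine and 0.413 to 1.11 CPM in yoked libraries.

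Between cocaine and yoked libraries, 4 members (Stxbp5l, Sv2c, Syt1 and Syt11) lay wholly below, 6.35% against 2.57% of genes, and 2 (Stx2 and Stx6) lay wholly above, 3.17% against 3.01%. These comparisons share the cocaine libraries with the comparison against saline, so the recurrence of a name is not independent. Syt1, the main calcium sensor, had 1412, 1425 and 1463 CPM in cocaine and 1879, 1485 and 1497 CPM in yoked libraries, with a log2 difference of -0.18 ± 0.17. Syt7 had 135, 245 and 208 CPM in cocaine and 224, 256 and 281 CPM in yoked libraries. The lowest value was again a library numbered 1. Among target-membrane SNAREs 7 of 9 lay above 0, and 14 of 16 synaptotagmins lay below; without the libraries numbered 1 these counts were 8 of 9 and 14 of 16. The test for any difference among the 3 groups also called 0 members, with 0 members and 79 genes at an unadjusted p under 0.05, and DESeq2 called 0 members.

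**Figure D2:**
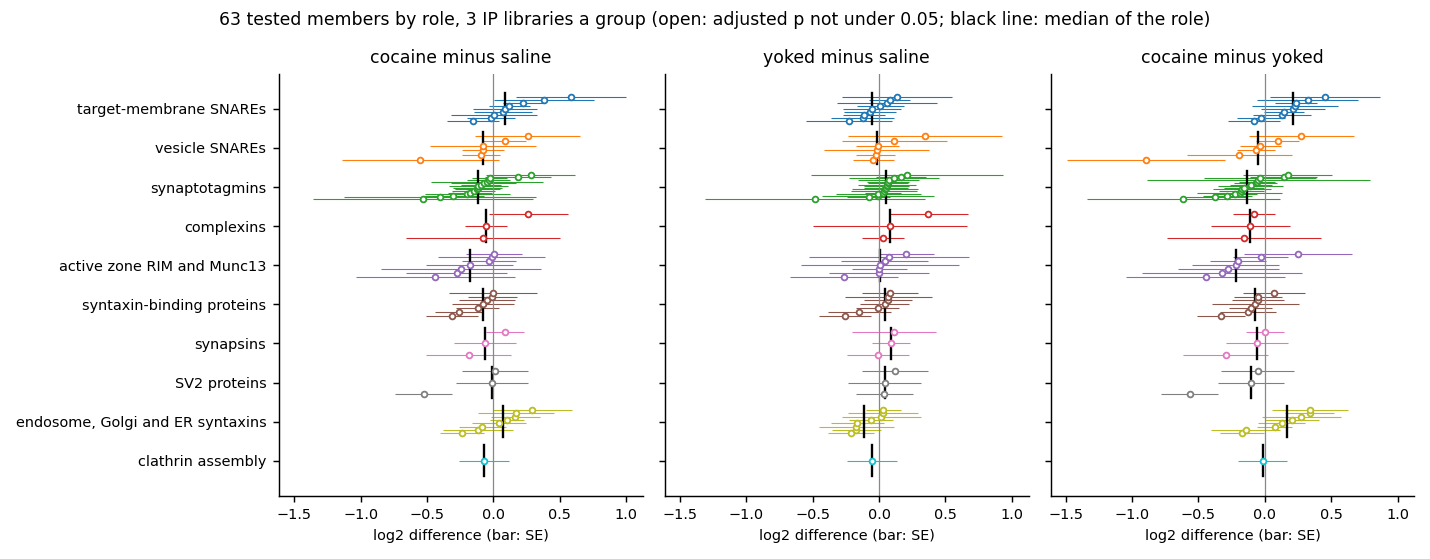
Log2 differences of the 63 tested members by role for the 3 treatment comparisons, with standard errors as bars and the median of each role as a black line, 3 IP libraries a group. All symbols are open because 0 members passed the adjusted threshold, and Sv2c stands at -0.52 against saline and -0.57 against yoked controls.

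Of the factors tested across IP libraries, replicate number was the one with calls among these genes. The 3 IP libraries numbered 1 were compared with the mean of numbers 2 and 3, with treatment in the model. Of 63 members 36 passed the threshold (57.1%), against 55.3% of 16417 genes, so release genes were called about as often as genes in general. Of these 18 rose and 18 fell, with a median over all 63 of -0.00. The background was 27.6% of genes rising and 27.7% falling. For 14 members (22.2%) all 3 libraries numbered 1 lay above all others, against 22.9% of genes, and for 14 they lay below, against 23.8%. Numbers 3 and 2 were compared as well: 0 members and 0% of genes passed in edgeR, 0 members and 320 genes had an unadjusted p under 0.05, and DESeq2 called 0 members and 8 genes.

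Active zone genes had the lowest median of the roles, at -0.78, and 4 of 7 fell and 1 rose. Rims1 (chr1:22286251-22805994, minus strand) had 84.2, 57.9 and 84.9 CPM in saline, cocaine and yoked number 1, and 124 to 159 CPM in the other 6 IP libraries. All 3 libraries numbered 1 were below all others, and Rims1 fell by 0.95 on the log2 scale (SE 0.11, adjusted p = 7.13e-06, edgeR). Rims2 fell by 0.78 and Rims3, a short RIM that lacks the Munc13-binding part, fell by 1.61. Unc13c, which encodes Munc13-3 and is known best from the cerebellum, fell by 1.61, from 38.9 ± 5.25 and 39.3 ± 7.06 CPM (SD, n = 3) in numbers 2 and 3 to 13.2 ± 4.63 CPM. Unc13a, the main Munc13 of excitatory synapses, rose by 0.32 ± 0.11 (adjusted p = 0.0169). That call was lost without saline replicate 1 (adjusted p = 0.07), saline replicate 3 (0.0539) or yoked replicate 1 (0.157). Beside these, the scaffold genes Bsn, Pclo, Erc1 and Erc2 fell by 0.54, 0.66, 0.61 and 0.63, and these partner genes are named after their values were seen.

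Of 3 complexins tested, 2 fell. Cplx2 had 668, 554 and 804 CPM in saline, cocaine and yoked number 1, and 1854 to 2187 CPM in the other 6 IP libraries. Its highest library numbered 1 was below the lowest of the rest, and it fell by 1.56 (SE 0.12, adjusted p = 1.45e-07). Cplx1 had 896, 893 and 894 CPM in number 1 and 751 to 893 CPM in the others. Its difference of 0.15 ± 0.10 did not pass (adjusted p = 0.203), and it was -0.16 when the trend with exon length was taken out. Cplx1 and Cplx2 encode proteins with the same action at central synapses, and the difference between their estimates was not tested. The rarer Cplx3 fell by 0.52 (adjusted p = 0.0175).

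Synaptotagmins went both ways, with 5 rising and 4 falling of 16. Syt14 (chr1:192891233-193035775, minus strand), a member without calcium binding, had 18.5, 17.0 and 22.5 CPM in number 1 and 50.7 to 103 CPM in the other IP libraries. The groups did not overlap, and Syt14 fell by 2.01 (SE 0.14, adjusted p = 6.31e-08), the largest change of any member. Syt6 fell by 1.02, and Syt10, a sensor of growth factor secretion, fell by 0.68 (Syt10 and, above, Cplx3 are likewise named after their values were seen). Syt7 fell by 0.43 (adjusted p = 0.00681) and by 0.27 without cocaine replicate 1. Syt5 rose by 0.77 ± 0.11, from 72.1 ± 4.56 and 75.5 ± 1.77 CPM (SD, n = 3) to 128 ± 24.7 CPM. Syt4 rose by 0.52 ± 0.10 (adjusted p = 0.000322), with 375, 329 and 363 CPM in number 1 and 233 to 264 CPM elsewhere. The calcium sensors of fast release did not pass: Syt1 differed by 0.19 ± 0.10 (adjusted p = 0.134) and Syt2 by 0.15 ± 0.11 (adjusted p = 0.266). Syt1 passed without cocaine replicate 1, at 0.30 and an adjusted p of 0.00781. Under that same omission Syt11 (0.22, adjusted p = 0.0492) and Snap91 (0.38, adjusted p = 0.00179) passed as well.

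Of 9 target-membrane SNAREs 3 rose and 3 fell, and of 6 vesicle SNAREs 1 rose and 1 fell. Snap25 had 22726, 22249 and 22229 CPM in number 1 and 13435 to 20499 CPM in the others, without overlap. It rose by 0.44 ± 0.11 (adjusted p = 0.00429), and without yoked replicate 1 the estimate was 0.36 with an adjusted p of 0.0527. Vamp2 had 1906 to 2055 CPM in number 1 and 1787 to 2227 CPM in the others, and its difference of -0.03 ± 0.11 did not pass (adjusted p = 0.807). Stx1a did not pass (-0.10 ± 0.10, adjusted p = 0.409). Snap47 (chr11:59407134-59451186, minus strand), a SNAP-25 relative found on internal membranes and at dendrites, had 325, 485 and 336 CPM in number 1 and 190 to 239 CPM elsewhere. It rose by 0.88 ± 0.11 (adjusted p = 1.04e-05), the largest rise of any member. Vamp1 differed by -0.12 ± 0.10 and did not pass.

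Of the constitutive SNAREs, Vamp3 fell by 1.01 (adjusted p = 4.06e-06), from 51.2 ± 3.77 and 50.1 ± 5.84 CPM (SD, n = 3) to 25.2 ± 1.68 CPM. Snap23 fell by 0.69 (adjusted p = 0.00188). Stx2, the syntaxin known as epimorphin, fell by 0.78 from 2.76 ± 0.60 and 2.45 ± 0.131 CPM to 1.62 ± 0.831 CPM. Without saline replicate 1, Stx2 stood at -0.45 with an adjusted p of 0.207. Stx4a rose by 0.43 ± 0.10 (adjusted p = 0.00245), and Vamp8 by 0.60 ± 0.24 (adjusted p = 0.0445). Vamp8 was at 6.53 CPM in cocaine number 1 against 2.18 to 3.79 CPM in the other 8 IP libraries, and without that library the estimate was 0.20 with an adjusted p of 0.519. Its call was also lost without saline replicate 3 (adjusted p = 0.0876), cocaine replicate 2 (0.145) or cocaine replicate 3 (0.106). These genes are expressed in glia and vessels as well as in neurons. Of 10 markers each, 8 astrocyte, 8 oligodendrocyte and 6 microglial genes fell in number 1, and 6 of 8 endothelial markers rose, and their part in these changes was not tested. In bulk RNA, fewer cells of a type and less RNA per cell cannot be told apart.

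Of 3 SV2 genes 2 rose and 0 fell, and of 3 synapsins 1 rose and 1 fell. Sv2b had 901, 909 and 947 CPM in number 1 and 588 to 624 CPM in the others, and rose by 0.61 ± 0.09 (adjusted p = 8.01e-05). Sv2a rose by 0.50 ± 0.10, from 121 ± 10.97 and 141 ± 6.13 CPM (SD, n = 3) to 187 ± 15.6 CPM, and Sv2c differed by -0.17 ± 0.14 without passing. Syn1 rose by 0.36 ± 0.13 (adjusted p = 0.0251), Syn2 did not pass (0.08 ± 0.10) and Syn3 fell by 0.74. Syn1 had 1032, 824 and 1208 CPM in saline, cocaine and yoked number 1, so that its cocaine library lay within the range of the others. Leaving out yoked replicate 1 brought Syn1 to 0.16 (adjusted p = 0.352), and leaving out cocaine replicate 1 brought it to 0.56 (adjusted p = 0.000141). The call of Syn1 was also lost without any 1 of the 3 saline replicates, yoked replicate 2 or yoked replicate 3, with adjusted p-values from 0.0524 to 0.099. Stxbp2, a syntaxin-binding protein of secretory and immune cells, rose by 0.72 ± 0.15 from a low level (8.61 CPM in number 1). The organelle syntaxins Stx8 and Stx18 rose by 0.63 ± 0.10 and 0.61 ± 0.14. The clathrin adaptor gene Snap91 (0.22 ± 0.12) did not pass.

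Partner genes gave 20 rises and 17 falls of 62. Over all genes 27.6% rose and 27.7% fell, a background that also applies to the marker counts below. The largest rises were Clta, a clathrin light chain, at 1.02 ± 0.13, the synaptophysin gene Syp at 0.78 ± 0.10 and Doc2a, a calcium sensor for spontaneous release, at 0.76 ± 0.12. The largest falls were those of Itsn1, an endocytic scaffold (-2.12 ± 0.14), Ppfia1, a liprin (-0.76 ± 0.12), and Syngr1, a synaptogyrin (-0.73 ± 0.11). Beside them 10 of 11 layer 5 markers rose, with a median of 0.95, 9 of 10 interneuron markers fell, and 6 of 7 nuclear noncoding RNAs fell, with a median of -3.88. Members that fell had a median exon length of 5881.5 bases, those that rose 4316 bases and those that did not pass 5340 bases. Across the 63 members the Spearman correlation of the log2 difference with exon length was -0.27, a description over genes that are not independent. When the trend with exon length was taken out of every library, 44 members passed, 31 of them among the original 36. The share of all genes at that setting is not given here, so this count does not set release genes apart. The part of cell makeup, nuclear RNA and transcript length in these changes was not tested.

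**Figure D3:**
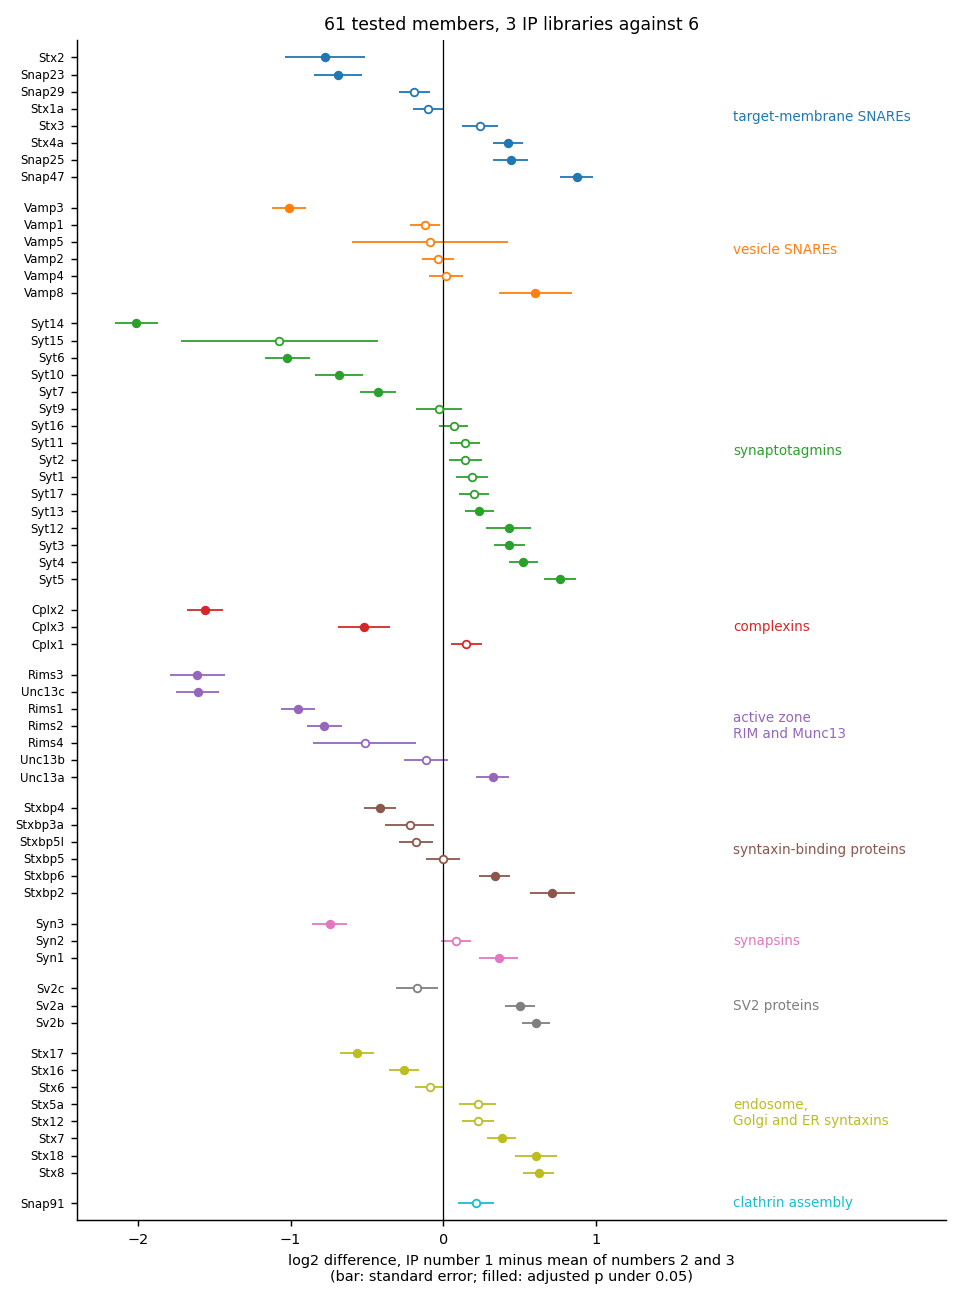
Log2 difference between the 3 IP libraries numbered 1 and the mean of numbers 2 and 3 for 61 members by role, with standard errors as bars and filled symbols for adjusted p under 0.05. Filled symbols lie on both sides of 0, from Syt14 at -2.01 to Snap47 at 0.88, while Vamp2 and Syt1 are open.

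**Figure D4:**
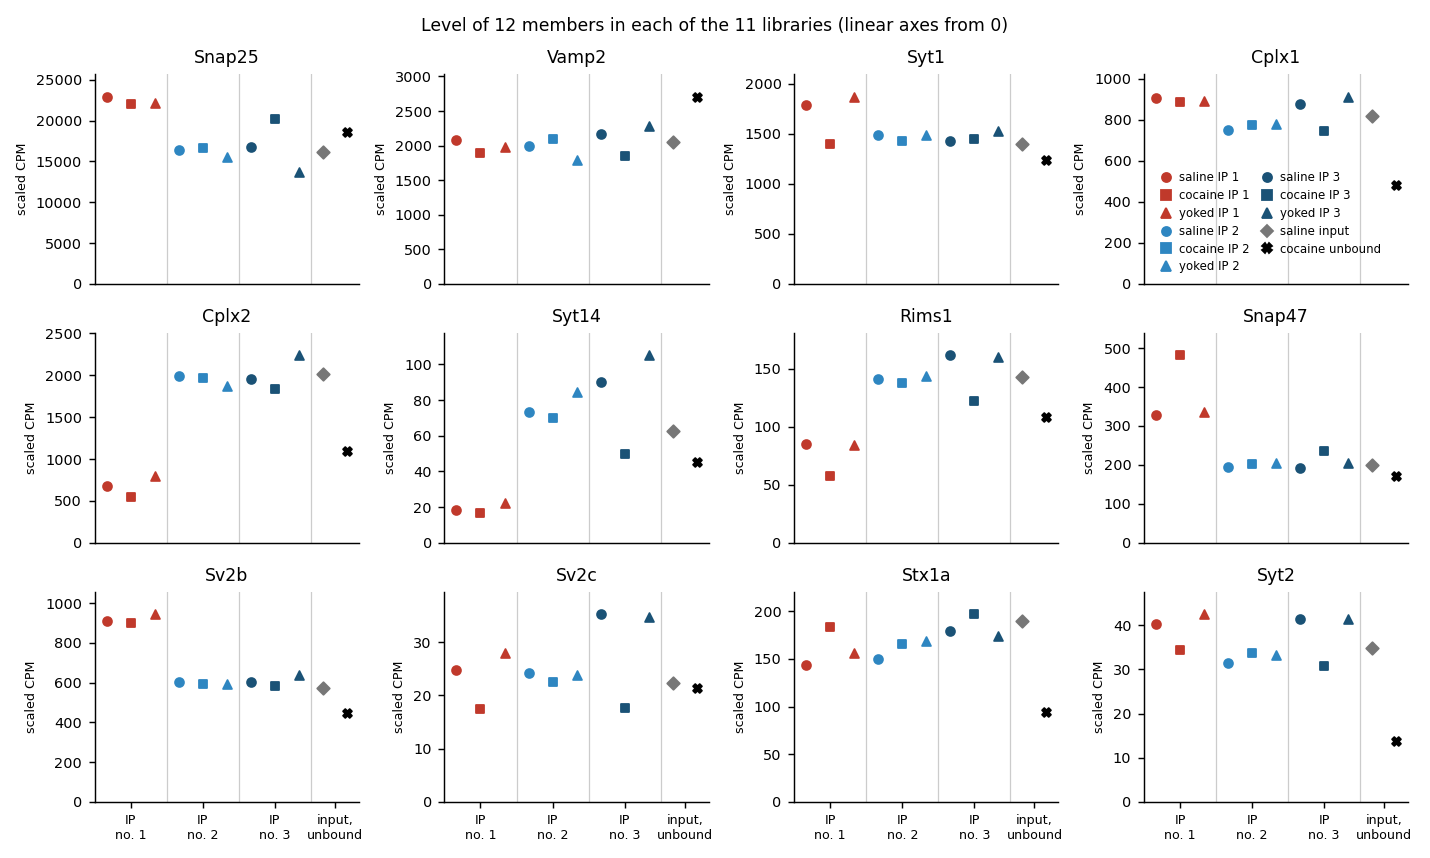
Scaled CPM (scaled over all 11 libraries, linear axes from 0) of 12 members in every library, ordered by IP number, with colour for the number and shape for the treatment. Red points (number 1) are lower for Cplx2, Syt14 and Rims1 and higher for Snap25, Snap47 and Sv2b, while the input point lies near IP numbers 2 and 3.

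Whether the treatment difference itself depended on the number was examined for cocaine against saline. Number 1 holds a single library per group, so the spread came only from the libraries numbered 2 and 3. With this limit, an interaction term was tested. It passed for 0 of 63 members and for 0.524% of genes (0.499% higher and 0.0244% lower), and 9 members (14.3%) had an unadjusted p under 0.05, against 2679 genes (16.3%). The smallest belonged to Unc13b, which encodes Munc13-2, at -0.80 ± 0.23 (adjusted p = 0.104, edgeR).

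The saline IP libraries were set against the single saline input, as the ratio of each IP library to it. At a mean of at least 1 CPM 61 members could be compared. None was at least 2-fold higher in all 3 IP libraries and none at least 2-fold lower, against backgrounds of 0.0742% and 0.0445% of 13478 genes. Higher by any size in all 3 were 18 members (29.5%; background 18.9%), and lower by any size were 7 (11.5%; background 17.6%). The medians over members were 0.15, 0.00 and 0.05 in IP numbers 1, 2 and 3. IP number 1 had 6 members at least 2-fold lower, against 11.3% of all genes, and numbers 2 and 3 had 0, against 0.26% and 0.631% of genes.

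The highest mean ratio was that of Stxbp6, at 0.91, 0.39 and 0.34 in IP numbers 1, 2 and 3 (216 CPM in the input). Cplx2 had log2 ratios of -1.58, 0.00 and -0.05, and Rims1 of -0.76, -0.00 and 0.16. For both genes the number 1 library lay farthest from the input. Snap25 was at 0.51, 0.04 and 0.04, Syt4 at 0.74, 0.05 and 0.12, and Sv2b at 0.66, 0.08 and 0.05. Vamp2 stayed at 0.01, -0.03 and 0.06. Stx1a was below the input in all 3 libraries, at -0.40, -0.33 and -0.10. The layer 5 markers had medians of 1.02, 0.02 and 0.37 in the same libraries, and the astrocyte markers -1.22, -0.07 and -0.27. A single input library gives no spread of its own.

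The cocaine IP libraries were set against the single unbound library, which is RNA left after the pull-down. Of 60 members 1 was at least 2-fold higher in all 3 IP libraries (1.67%; background 0.399%), and 0 were at least 2-fold lower (background 2.21%). That member was Syt2 (chr1:134646677-134762593, plus strand), the fast calcium sensor of high-frequency synapses. It had 34.0, 33.4 and 30.9 CPM in the IP libraries and 14.4 CPM in the unbound library, or log2 ratios of 1.24, 1.21 and 1.10. Over the saline input, Syt2 had log2 ratios of 0.21, -0.14 and 0.23 in saline IP numbers 1, 2 and 3. It was thus not higher than the input in every library. An edgeR fit over all 11 libraries, at an adjusted p under 0.05 without a 2-fold cut, called 0 members higher. That is another measure than the 2-fold rule, and the unbound fraction has no spread of its own.

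Stx1a (0.88, 0.74 and 1.01), Syt3 (1.16, 0.70 and 0.84) and Cplx1 (0.81, 0.61 and 0.58) were also above the unbound library in each IP library. Syt11 (0.40, 0.40 and 0.42) and Syn2 (0.36, 0.40 and 0.44) were higher with little spread between libraries. For Syt2, Syt11 and Syn2 the IP libraries numbered 1, 2 and 3 thus gave nearly the same ratios. Higher by any size in all 3 were 22 members (36.7%; background 31.8%), of which 9 were synaptotagmins. Lower by any size were 15 (25%; background 25.7%). Vamp2 was lower at -0.59, -0.44 and -0.60, with 1872, 2078 and 1856 CPM against 2818 CPM unbound. Snap23 was lowest, at -1.64, -0.66 and -0.60, and Stxbp5l was at -1.15, -0.66 and -0.60. Stx4a lay at -0.07, -0.78 and -0.55, with its overlap with another gene and the larger share of shared reads in the unbound library as a limit. Cplx2 was 2-fold lower in number 1 (-1.07) and higher in numbers 2 and 3 (0.77 and 0.68). Layer 5 markers had medians of 0.97, 0.58 and 0.51 in these ratios, oligodendrocyte markers -1.23, -0.40 and -0.32, and nuclear noncoding RNAs -4.05, -1.17 and -1.61. The unbound library was sequenced in a lane of its own, and the fraction and its lane cannot be told apart.

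**Figure D5:**
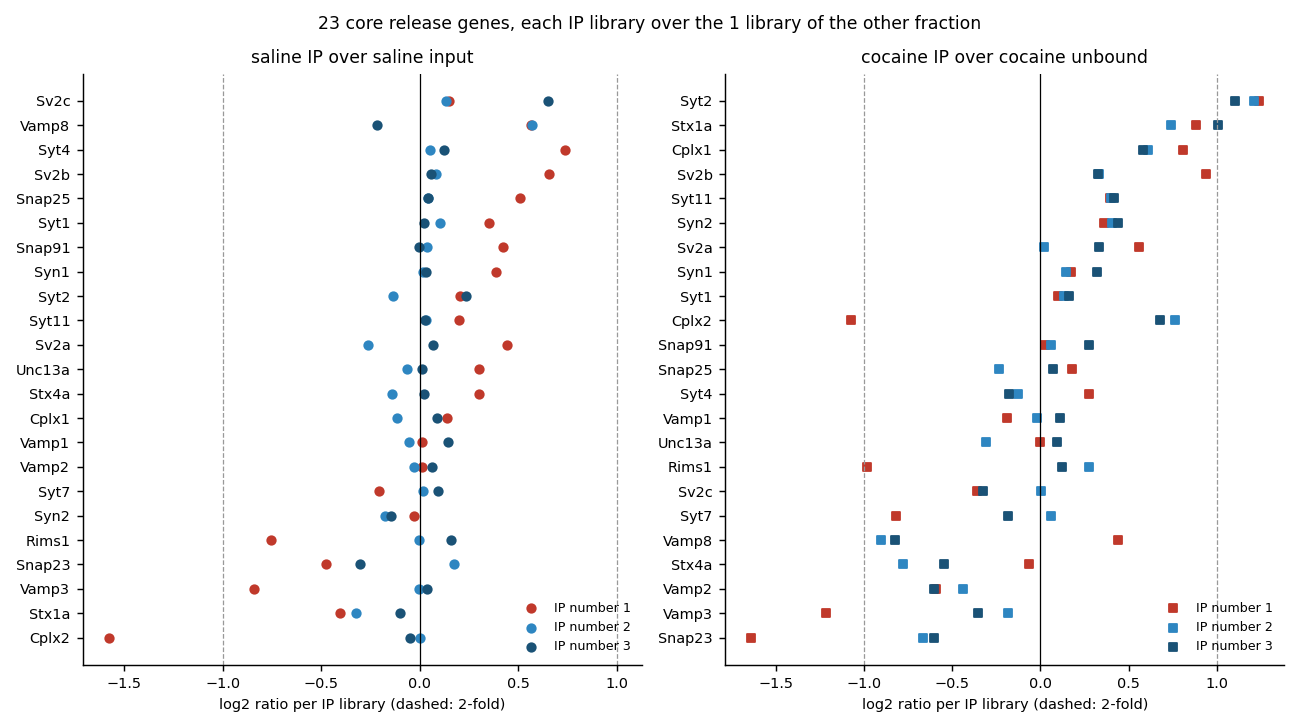
Log2 ratio of each saline IP library to the saline input (left) and of each cocaine IP library to the cocaine unbound library (right) for 23 core release genes, coloured by IP number, with dashed lines at 2-fold. Over input, blue points lie close to 0 for most genes and red points spread from -1.58 (Cplx2) to 0.74 (Syt4), and over unbound, Syt2 lies beyond 2-fold in all 3 libraries.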

How the data were processed

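Ribosome-bound RNA was sequenced from 9 immunopurified (IP) libraries, with 1 input and 1 unbound library. Each library's deposited file lists unnormalized read counts by gene symbol. The authors aligned reads to mm10 with STAR 2.0.0e and counted them with HTSeq, per the submitters' processing notes. Neither the annotation nor the strand setting is stated there. If the strand was ignored, antisense reads add to a gene. Reads over several genes (1.56% to 7.34% of entries), outside genes (6.28% to 15.5%) or in several places (28.3% to 47.0%) entered neither library sizes nor tests. Depth ran from 20926712 to 53862653 gene counts, and copies made by PCR are not told apart from molecules.

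The members and lists were chosen with earlier results of these data known. The 9 IP libraries were fitted in edgeR 4.0.16 (R 4.3.3) with TMM scaling, filterByExpr and robust quasi-likelihood F-tests, with Benjamini-Hochberg adjustment over all 16417 genes at 0.05. SE is the log2 difference divided by the square root of F. The scripts were tested on simulated data with known changes. The simulated treatment comparison held no effect of replicate number, so it does not measure power in these libraries. Treatment comparisons used group means; replicate number comparisons added treatment to the model. RPKM divides by the exon length of GENCODE M21 (GRCm38, the assembly of mm10), which 69 members have, 2 of them under a newer symbol. Ratios to input or unbound used a prior count of 2. Alternatives were RLE scaling, DESeq2 1.42.0, no filter, a mean of 10 CPM, Rn45s left out, a length trend offset, a replicate block, each replicate left out and, added after seeing the data, only genes with an exon length. Replicate numbers go with the index sequence. Libraries with the same number deviated together in each of 9 pairs across treatments (correlations 0.376 to 0.795), so numbers were taken to pair libraries. Numbers 2 and 3 also correlated with each other across treatments (0.37 to 0.622), so the check sets number 1 apart and does not tell 2 from 3.

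Genes named are a list of 25 core release genes in each comparison, up to 8 members past the threshold in each direction with a mean of at least 1 CPM, or, where none passed, the 5 with the smallest p, and for partner genes the 3 largest changes in each direction. The values of 2 members enter the counts and tests but are not reported singly here. Start regions come from RefSeq (GRCm38.p6).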

Additional observations from a re-analysis of the deposited data

How the results depend on the processing

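In the treatment comparisons 0 members and 0 genes passed under every alternative run. With replicate number as a block, which pairs libraries across treatments, the count was also 0, and no call changed. At an unadjusted p under 0.05 the block gave 8 members (12.7%) for cocaine over saline, against 12.3% of all genes, 0 for yoked over saline, against 3% of genes, and 9 (14.3%) for cocaine over yoked, against 18.3% of genes. Without the block these member counts were 1, 0 and 1. For number 1 against numbers 2 and 3, the main fit called 36 of 63 members (57.1%) and 55.3% of 16417 genes. The members called ranged from 28 to 38 with a replicate left out and were 35 by DESeq2. At a mean of at least 10 CPM they were 28 of 53, and over all genes that minimum gave 5784 in place of 9083. Shares of all genes at these settings are not given here, so the counts do not set release genes apart. Estimates that changed sign were Syn2, at -0.013 with the 10 CPM minimum, Vamp1 (0.19), Cplx1 (-0.16) and Sv2c (0.12) with the length trend taken out, and Vamp2, at 0.021 without cocaine replicate 2 and 0.014 without yoked replicate 3, in a range of -0.081 to 0.021 with a replicate left out. Among the core genes, taking out the length trend also ended the calls of Syn1, Vamp8 and Stx4a and gave calls to Stx1a, Syt1, Syt2, Syn2 and Snap91. Without an expression filter the median of all genes in this comparison was -0.12 in place of 0.01.

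Number 3 against number 2 gave 8 genes by DESeq2, 8 without a filter, 4 with the length trend taken out and 0 to 7 with a replicate left out. The interaction gave 448 genes without a filter in place of 86. Genes at least 2-fold higher in every saline IP library than in the input numbered 10, and 156 without a CPM minimum, 0 at 10 CPM, 16 to 27 with a replicate left out and 0 in an edgeR fit over all 11 libraries. Those lower numbered 6, and 476, 1, 10 to 41 and 0 under the same changes. For cocaine IP over unbound, genes higher numbered 54, and 157, 20, 123 to 239 and 2; genes lower numbered 299, and 1169, 106, 305 to 459 and 8. Members higher were 0 in the fit over 11 libraries, and members lower were 2 without a CPM minimum. The edgeR fit over 11 libraries counts genes at an adjusted p under 0.05 without a 2-fold cut, which is another measure. Fewer libraries in the rule or fewer genes tested make these counts differ by construction, and the cause was not tested further. With 1 input and 1 unbound library, ratios carry no error for that fraction.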
